A study of Mus musculus with 16 samples.

Results

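The immediate early genes are transcribed within minutes of a stimulus without new protein synthesis, and the NR4A orphan nuclear receptors are among them. The 10 genes described here are Nr4a1, Nr4a2, Nr4a3, Fos, Junb, Egr1, Btg2, Ier2, Ier5 and Atf3. They are 10 of 19938 genes that had a probe set annotated to a single symbol. For a gene with several such probe sets the brightest over all arrays was to be used, but each of the 10 had exactly 1. Expression was measured in gastrocnemius muscle, 1 Affymetrix Mouse Gene 1.0 array per mouse, in 4 groups of 4 mice. All 16 mice were males on a C57Bl6J background fed a high-fat diet, KO and wild-type (WT) mice alike, in which butter fat gave 40% of the calories, for at least 8 weeks, and their age is not given in the sources used here. Ppp3r1 KO mice lack the regulatory subunit of calcineurin in skeletal muscle, through a Cre recombinase driven from Mlc1f, a fast muscle myosin light chain gene. The Ppp3r1 WT mice are their littermates, and the labels do not say whether these carry the Cre. Ppp3cb KO mice lack the beta catalytic subunit of calcineurin in the whole body, and the Ppp3cb WT mice are their littermates.

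NR4A receptors are called orphans because no ligand is known to control them in the usual way, and their activity follows largely from how much of them is made. In skeletal muscle they respond to beta-adrenergic signals and exercise through cyclic AMP, calcium and the factor CREB, and they act on genes of glucose and lipid use. Fos and Junb are subunits of the dimeric factor AP-1, Egr1 is a zinc finger factor, and Btg2 is an antiproliferative co-regulator of transcription and mRNA decay. Ier2 and Ier5 are small nuclear proteins of the early response, and Atf3 is a stress-induced member of the ATF/CREB family. Calcineurin, the calcium-dependent phosphatase removed in these mice, acts on NFAT factors and on CRTC co-activators of CREB.

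The 250 bases before the annotated start are shown for the 3 receptors, which respond to CREB, and for Btg2 and Ier5, the pair with the smallest p in the covariation over arrays. The sequences are RefSeq's, build GRCm38.p6, and are written 5′ to 3′ on the gene's own strand. Capitals mark the short core TGACG of the cyclic AMP response element on either strand, which reads CGTCA on the opposite strand. The Nr4a1 window is chr15:101266596-101266845 on the plus strand, and that of Nr4a2 is chr2:57124004-57124253 on the minus strand. The Nr4a3 window is chr4:48045055-48045304 on the plus strand. The Btg2 window is chr1:134079156-134079405 on the minus strand, and that of Ier5 is chr1:155099637-155099886 on the minus strand.
Nr4a1: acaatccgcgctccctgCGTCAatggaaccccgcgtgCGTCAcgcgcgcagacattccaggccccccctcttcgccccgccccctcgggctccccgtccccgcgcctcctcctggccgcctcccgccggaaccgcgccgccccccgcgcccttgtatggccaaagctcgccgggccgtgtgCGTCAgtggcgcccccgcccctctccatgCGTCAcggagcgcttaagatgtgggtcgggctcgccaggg
Nr4a2: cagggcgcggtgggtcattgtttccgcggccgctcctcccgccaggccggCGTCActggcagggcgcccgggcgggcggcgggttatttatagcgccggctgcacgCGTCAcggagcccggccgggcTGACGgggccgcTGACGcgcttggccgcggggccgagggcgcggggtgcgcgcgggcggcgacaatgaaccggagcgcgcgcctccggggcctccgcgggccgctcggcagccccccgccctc
Nr4a3: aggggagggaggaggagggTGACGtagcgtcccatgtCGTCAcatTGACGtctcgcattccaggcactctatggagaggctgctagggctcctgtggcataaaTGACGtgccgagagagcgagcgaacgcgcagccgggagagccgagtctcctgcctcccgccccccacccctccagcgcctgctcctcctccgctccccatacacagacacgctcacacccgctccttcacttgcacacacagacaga
Btg2: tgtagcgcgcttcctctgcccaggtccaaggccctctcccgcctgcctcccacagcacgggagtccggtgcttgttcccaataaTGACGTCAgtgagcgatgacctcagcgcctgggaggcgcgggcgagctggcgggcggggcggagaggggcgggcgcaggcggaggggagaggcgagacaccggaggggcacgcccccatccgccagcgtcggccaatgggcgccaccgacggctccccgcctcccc
Ier5: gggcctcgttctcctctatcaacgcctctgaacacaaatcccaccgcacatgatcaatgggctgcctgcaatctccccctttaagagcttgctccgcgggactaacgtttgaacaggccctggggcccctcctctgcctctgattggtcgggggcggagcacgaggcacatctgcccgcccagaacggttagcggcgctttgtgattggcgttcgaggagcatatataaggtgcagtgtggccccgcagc

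Of the 10 genes, 8 were searched. Ier2 had no window among the promoters available, and Egr1 was left out of the search by choice. The counts over the 8 windows, that of the CArG box among them, depend on this exclusion. The core TGACG, read on both strands, stood in 7 of these 8 windows and in 17.8% of 32851 promoter windows of the same length. Nr4a1, Nr4a2 and Nr4a3 each held 4 copies, Fos held 2, Junb and Atf3 held 1 each, and Ier5 held 0. The Btg2 window held the full palindromic element TGACGTCA, at positions -166 to -159 from the start, which contains 2 overlapping cores, 1 on each strand. The full element was found in 1.55% of all windows and in none of the other 7. The AP-1 site TGACTCA, whose opposite strand reads TGAGTCA, was in 0 of the 8 windows (4.46% of all windows). The EGR site GCGTGGGCG and the NR4A monomer site AAAGGTCA were also in 0 of the 8, against 0.536% and 1.34% of all windows, and the CArG box bound by SRF was in 0 of the 8, against 1.47%. These matches describe letters in 250 bases and show no binding. They say nothing of Egr1, of Ier2 or of sites farther upstream, such as further CArG boxes.

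**Figure D1:**
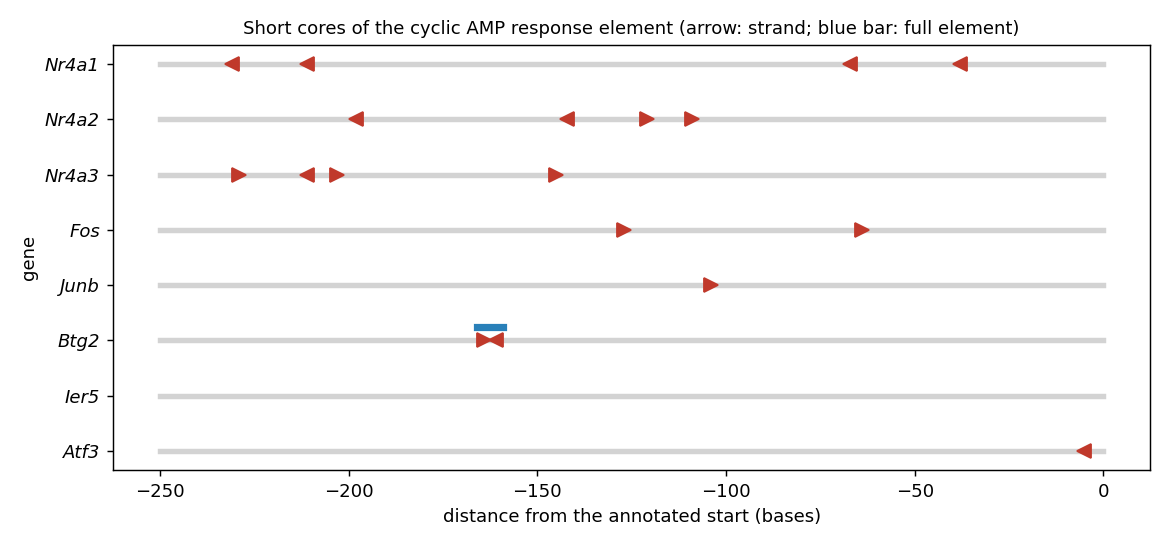
Positions of the short core of the cyclic AMP response element in the 250 bases before the annotated start of 8 genes. The horizontal axis is the distance from the start in bases, each row is a gene, an arrow is a core on the strand it points along, and the blue bar is the full element of Btg2. The 3 NR4A rows hold 4 arrows each and the Ier5 row holds 0.

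The median log2 value of an array was 6.81 to 6.94 in the Ppp3r1 line and 6.68 to 6.77 in the Ppp3cb line, and arrays of the same group correlated at 0.965 to 0.992. All 8 markers of skeletal muscle fibres were above the filter on dim probe sets, and the log2 of their summed level was 16.82 to 16.94 over the 16 arrays. Ppp3r1 itself was 8.98 to 9.28 in Ppp3r1 KO muscle and 9.36 to 9.64 in Ppp3r1 WT muscle, with no overlap. Its log2 difference was -0.32 (SE 0.13, limma adjusted p = 0.3715), so the targeted gene itself was not called. In the other line Ppp3cb went against the labels on 4 arrays. It was 10.48 and 10.22 in animals 18 and 5, but 11.74 and 11.61 in animals 6 and 9, all labelled KO. It was 11.80 and 11.67 in animals 12 and 2, but 10.37 and 10.23 in animals 23 and 24, all labelled WT. Groups of that line are therefore "labelled" groups below, and the differences, list and marker counts and correlations that use them are also given without animals 6, 9, 23 and 24. Group means and the likeness of other genes are given with all arrays.

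Ppp3r1 KO muscle was set against muscle of its WT littermates to ask how these genes stand when calcineurin is lost from the fibre. Nr4a3 had a mean 2.09 times as high in KO muscle, and all 4 KO arrays lay above all 4 WT arrays. All 10 genes had a higher mean in KO muscle, but 0 of the 9 that entered the test was called at a limma adjusted p under 0.05, where 0.00656% of all clusters (1 of 15252) was called. A cluster here is a probe set with 1 gene symbol, and p-values were adjusted over all 15252. Of all clusters 54.2% were higher, with a median log2 difference of 0.02, against a median of 0.19 over the 10 genes. At an unadjusted p under 0.05, Nr4a3 was the 1 gene of the 9 that passed, against 6.37% of clusters higher and 5.35% lower at that level.

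Nr4a3 was 6.83 in KO animal 331, 7.78 in 335, 7.09 in 414 and 8.58 in 416, and in WT it was 6.57 in animal 334, 6.44 in 336, 6.49 in 413 and 6.53 in 415, all on the log2 scale. The WT arrays lay within a narrow band and the KO arrays were spread over a wide range above it. That band is dim, below the median of all probe sets on the WT arrays (6.81 to 6.91) and near the filter at 6.18. Whether the narrow band reflects the floor of the signal was not tested. The means were 7.57 ± 0.78 in KO and 6.51 ± 0.06 in WT (SD, n = 4 each). The log2 difference was 1.06 (SE 0.27, 95% interval 0.50 to 1.63), with a limma adjusted p of 0.363. The two-sided exact permutation p was 0.0286, the smallest that 4 against 4 arrays can give. Of all clusters, 3.15% were higher in KO without overlap. Without KO animal 416, the highest array, the difference was 0.73.

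The other receptors did not separate the groups of this line. Nr4a1 was 10.66, 10.90, 10.69 and 11.003 in KO muscle, against 10.71, 10.29, 10.46 and 10.96 in WT muscle, and 1 KO array lay above all WT arrays. Its log2 difference was 0.21 (SE 0.17, 95% interval -0.15 to 0.56). Nr4a2 was 7.64, 7.33, 7.55 and 7.60 in KO muscle, against 7.63, 7.56, 7.43 and 7.35 in WT muscle, so the groups covered nearly the same range. Its difference was 0.04 (SE 0.33, 95% interval -0.66 to 0.73), an interval set by the wide spread of Nr4a2 in the other line, since its SD was 0.14 in KO and 0.13 in WT here. It turned to -0.02 with array weights. The fit gives each cluster a single variance for all 4 groups, so the spread within the Ppp3cb line enters every SE of the Ppp3r1 line, and the reverse.

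Fos, Junb and Egr1 differed little and overlapped between the groups. Fos was 6.72, 6.83, 6.85 and 7.75 in KO muscle, against 6.92, 7.17, 6.61 and 6.86 in WT muscle. The value of 7.75 belonged to KO animal 416, and the other 3 KO arrays lay inside the WT range. Egr1 in the same order of animals was 6.63, 6.75, 6.89 and 7.52 in KO muscle, against 6.73, 7.05, 6.47 and 7.21 in WT muscle, and again animal 416 alone exceeded the WT arrays. The log2 differences were 0.15 for Fos (SE 0.20) and 0.08 for Egr1 (SE 0.23), and without animal 416 they were -0.09 and -0.11. Junb lay between 6.86 and 7.11 in KO muscle and between 6.80 and 6.97 in WT muscle, with a difference of 0.06 (SE 0.12).

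Btg2 and Ier5 stood apart on part of the KO arrays. Btg2 was 8.25, 7.84, 8.32 and 8.32 in KO muscle, against 7.80, 8.08, 7.93 and 7.86 in WT muscle, so all KO arrays but that of animal 335 lay above all WT arrays. Its log2 difference was 0.26 (SE 0.14, 95% interval -0.04 to 0.57, limma adjusted p = 0.480; two-sided exact permutation p = 0.114). Ier5 was 6.54, 6.48, 6.79 and 6.77 in KO muscle, against 6.45, 6.60, 6.43 and 6.44 in WT muscle, and animals 414 and 416 were above all WT arrays. Its difference was 0.16 (SE 0.09, 95% interval -0.03 to 0.36). Ier2 lay between 6.13 and 6.51 in KO muscle and between 5.84 and 6.47 in WT muscle, with a difference of 0.21. It fell below the filter on dim probe sets, at a log2 value of 6.18, so it was not tested with the others.

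Atf3 was 7.16, 7.25, 7.81 and 8.50 in KO muscle, against 7.13, 7.37, 7.50 and 7.12 in WT muscle. Animals 414 and 416 were again the 2 KO arrays above every WT array. The log2 difference was 0.40 (SE 0.33, 95% interval -0.30 to 1.10) and it was 0.13 without animal 416. The animals of this line carry numbers in 2 series, 331 to 336 and 413 to 416, with 2 KO and 2 WT in each, and the labels do not say what the series mark. Within the lower and the higher series the differences were 0.80 and 1.33 for Nr4a3, -0.05 and 0.85 for Atf3, -0.27 and 0.56 for Fos, and -0.20 and 0.36 for Egr1. They were 0.10 and 0.42 for Btg2, -0.02 and 0.34 for Ier5, 0.28 and 0.14 for Nr4a1, and 0.05 and 0.37 for Ier2. Nr4a3, Nr4a1, Btg2 and Ier2 thus were higher in KO muscle in both series. Nr4a2, Fos, Junb, Egr1, Ier5 and Atf3 were higher in KO muscle in the higher series alone.

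**Figure D2:**
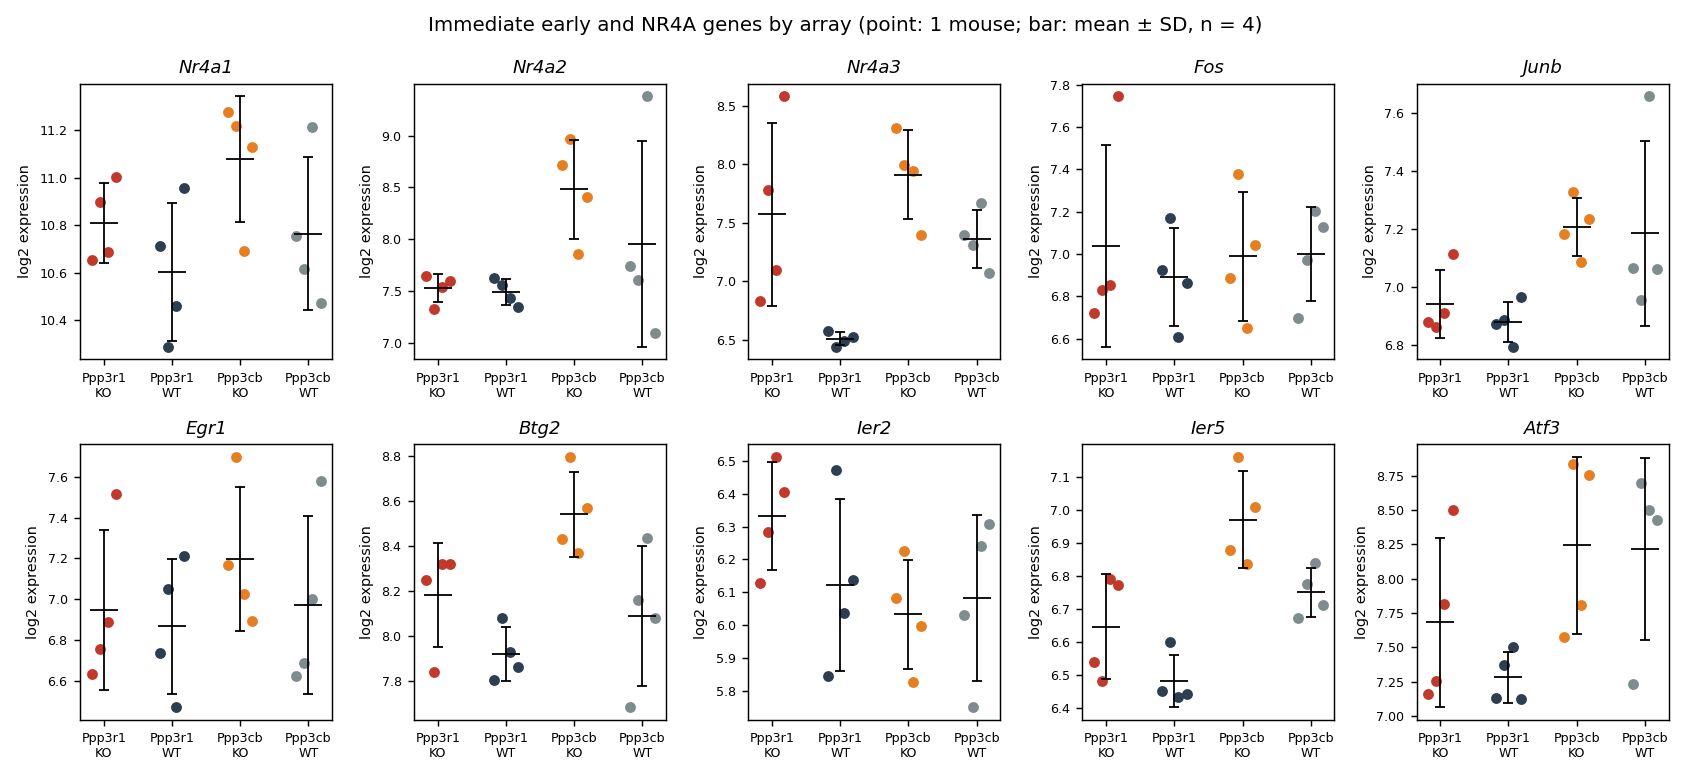
Expression of the 10 genes, 1 panel per gene, with the log2 expression on the vertical axis and the 4 groups on the horizontal axis. Points are single mice and bars are the mean ± SD (n = 4). In the Nr4a3 panel the Ppp3r1 WT arrays sit between 6.44 and 6.57, and the Ppp3r1 KO arrays sit above them.

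The same comparison in the Ppp3cb line, by the labels, asked whether these genes differ with loss of the catalytic subunit in all tissues. Of the 9 tested genes 0 was called, as was 0% of all clusters by limma, while 264 clusters were at an unadjusted p under 0.05. At that level, 0.872% of clusters were higher and 0.859% lower, and 2 of the 9 genes were higher, Btg2 and Ier5. These clusters are 1.73% of all, fewer than a threshold of 0.05 gives by chance, so the background is low here. The mean was higher in labelled KO muscle for 8 of the 10 genes, with a median log2 difference of 0.22, against 55.9% of all clusters and a median of 0.01. None of the 10 separated the labelled groups without overlap, which 0.774% of clusters did as higher in KO.

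Btg2 was 8.43, 8.80, 8.37 and 8.57 in labelled KO animals 18, 5, 6 and 9, against 7.68, 8.16, 8.44 and 8.08 in labelled WT animals 12, 2, 23 and 24. Of the KO arrays 2 lay above all WT arrays, and the overlap was with WT animal 23 alone. The log2 difference was 0.45 (SE 0.14, 95% interval 0.15 to 0.76, limma adjusted p = 1.00; two-sided exact permutation p = 0.0857). Ier5 was 6.88, 7.16, 6.84 and 7.01 in labelled KO muscle, against 6.67, 6.77, 6.84 and 6.71 in labelled WT muscle. Its difference was 0.22 (SE 0.09, 95% interval 0.03 to 0.41, limma adjusted p = 1.00; two-sided exact permutation p = 0.0571). The KO values lay in the upper part of the line's range for both genes, with the WT animal 23 within it.

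The receptors had larger values in this line, with wide intervals. Nr4a3 was 8.31, 7.99, 7.94 and 7.40 in labelled KO muscle, against 7.40, 7.31, 7.67 and 7.07 in labelled WT muscle, and 3 KO arrays lay above all WT arrays. The log2 difference was 0.55 (SE 0.27, 95% interval -0.02 to 1.12; two-sided exact permutation p = 0.0571). Nr4a2 was 8.71, 8.96, 7.86 and 8.41 in labelled KO muscle, against 7.74, 7.61, 9.38 and 7.10 in labelled WT muscle. Both the highest and the lowest array of Nr4a2 in this line were labelled WT, animals 23 and 24. Its difference was 0.53 (SE 0.33, 95% interval -0.17 to 1.22), and it was 1.00 without WT animal 23 and 0.24 without WT animal 24. Nr4a1 was 11.28, 11.22, 10.69 and 11.13 in labelled KO muscle, against 10.76, 10.62, 11.22 and 10.47 in labelled WT muscle, a difference of 0.31 (SE 0.17).

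For the remaining genes the labelled groups had close means. The log2 difference was -0.01 for Fos (SE 0.20, 95% interval -0.43 to 0.41), 0.02 for Junb (SE 0.12) and 0.03 for Atf3 (SE 0.33). Fos changed sign to 0.02 with a repeated quantile normalization and to 0.03 with each array's median removed. Egr1 differed by 0.22 (SE 0.23), with 0.056 without KO animal 5 and 0.43 without WT animal 24, and Ier2 by -0.05. Atf3 was spread over 7.57 to 8.83 in labelled KO muscle and 7.24 to 8.70 in labelled WT muscle, a range exceeded in this line only by that of Nr4a2.

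**Figure D3:**
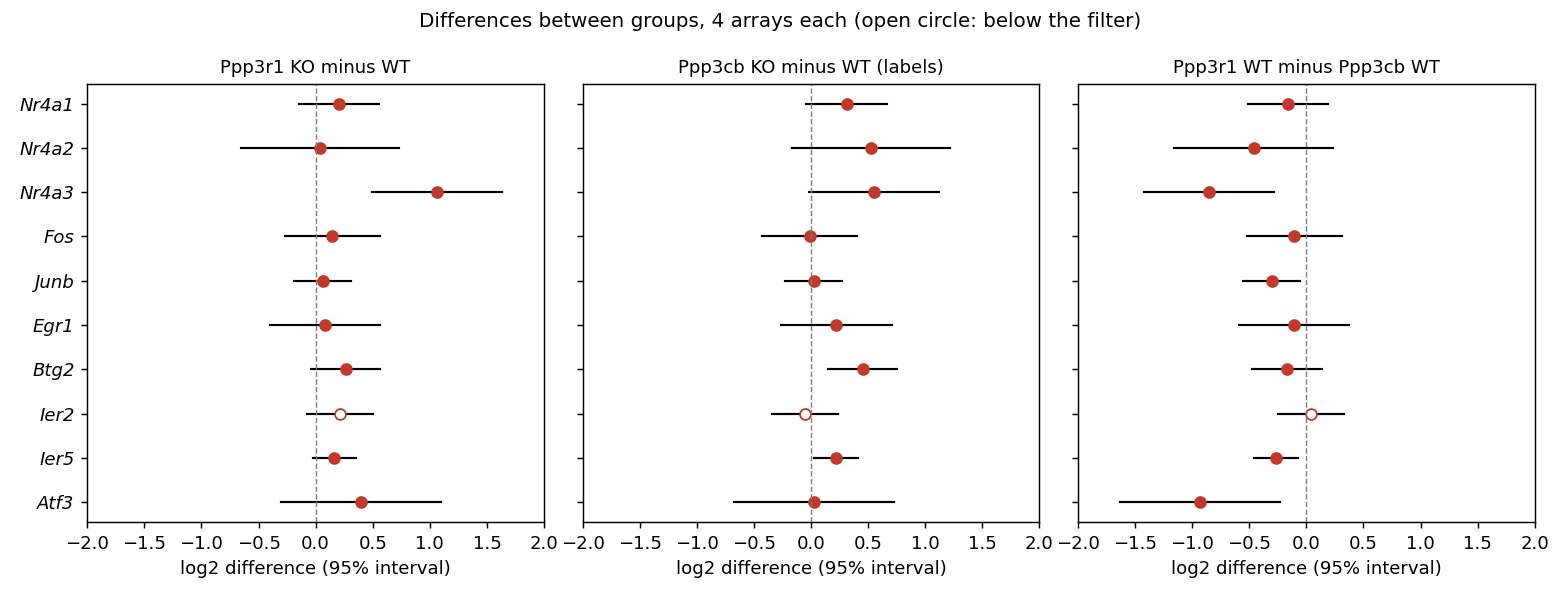
Log2 differences of the 10 genes in 3 comparisons, 1 row per gene, with points at the difference and lines over its 95% interval. The vertical dashed line is 0, and the open circle is Ier2, which was below the filter. In the left panel the interval of Nr4a3 alone lies above 0, and in the middle panel those of Btg2 and Ier5 do. In the right panel those of Nr4a3, Junb, Ier5 and Atf3 lie below 0.

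With the 4 contradictory arrays left out, 2 arrays labelled KO (animals 18 and 5) were set against 2 labelled WT (animals 12 and 2). Nr4a2 then was called, with a log2 difference of 1.16 (SE 0.14, 95% interval 0.85 to 1.47, limma adjusted p = 0.00290), among 0.0918% of clusters called (14 of 15252). Its values were 8.71 and 8.96 in KO muscle and 7.74 and 7.61 in WT muscle. This SE was smaller than the 0.33 with all arrays, and the arrays left out held the highest and the lowest Nr4a2 value of the line. The fit shares a single variance over the groups, and most of the 12 arrays left are of the Ppp3r1 line. There the SD of Nr4a2 was 0.14 in KO and 0.13 in WT. The SE, interval and limma p thus mainly reflect the spread of the other line. With 2 arrays against 2 an exact permutation test cannot give a p below 0.333. All 9 tested genes had a positive difference in this fit, from 0.24 for Atf3 to 1.16 for Nr4a2, with 0.80 for Nr4a3 (SE 0.38), 0.78 for Egr1 (SE 0.27), 0.69 for Btg2 (SE 0.20) and 0.56 for Nr4a1 (SE 0.19). None of the other 8 was called.

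The arrays of this line were also read by their Ppp3cb value, below 11 in animals 18, 5, 23 and 24 and above it in animals 6, 9, 12 and 2. These sets come from a measured value and are not groups of the labels, so only values and overlap are given. Ier2 was the 1 gene of the 10 without overlap, at 6.08 to 6.31 in the arrays below 11 and 5.75 to 6.03 in those above. It was below the filter, so it is not among the tested clusters counted next. Of the tested clusters 6.58% were higher without overlap in the arrays below 11, and 5.58% were lower. For Nr4a1, Nr4a2, Fos and Egr1, 3 of the 4 arrays below 11 exceeded all 4 arrays above 11. The remaining array of Nr4a1 and Nr4a2, that of animal 24, was the lowest of the line. Nr4a2 thus was 8.71, 8.96 and 9.38 in animals 18, 5 and 23 and 7.10 in animal 24, while the arrays above 11 lay between 7.61 and 8.41. Egr1 was 7.002 to 7.70 in the arrays below 11 and 6.62 to 7.02 in those above, an overlap through animals 23 and 6 only. Btg2, Ier5 and Atf3, by contrast, had 1 of 4 arrays below 11 that exceeded all arrays above 11. The share of all clusters with such partial separation was not counted, so these counts are a description only.

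**Figure D4:**
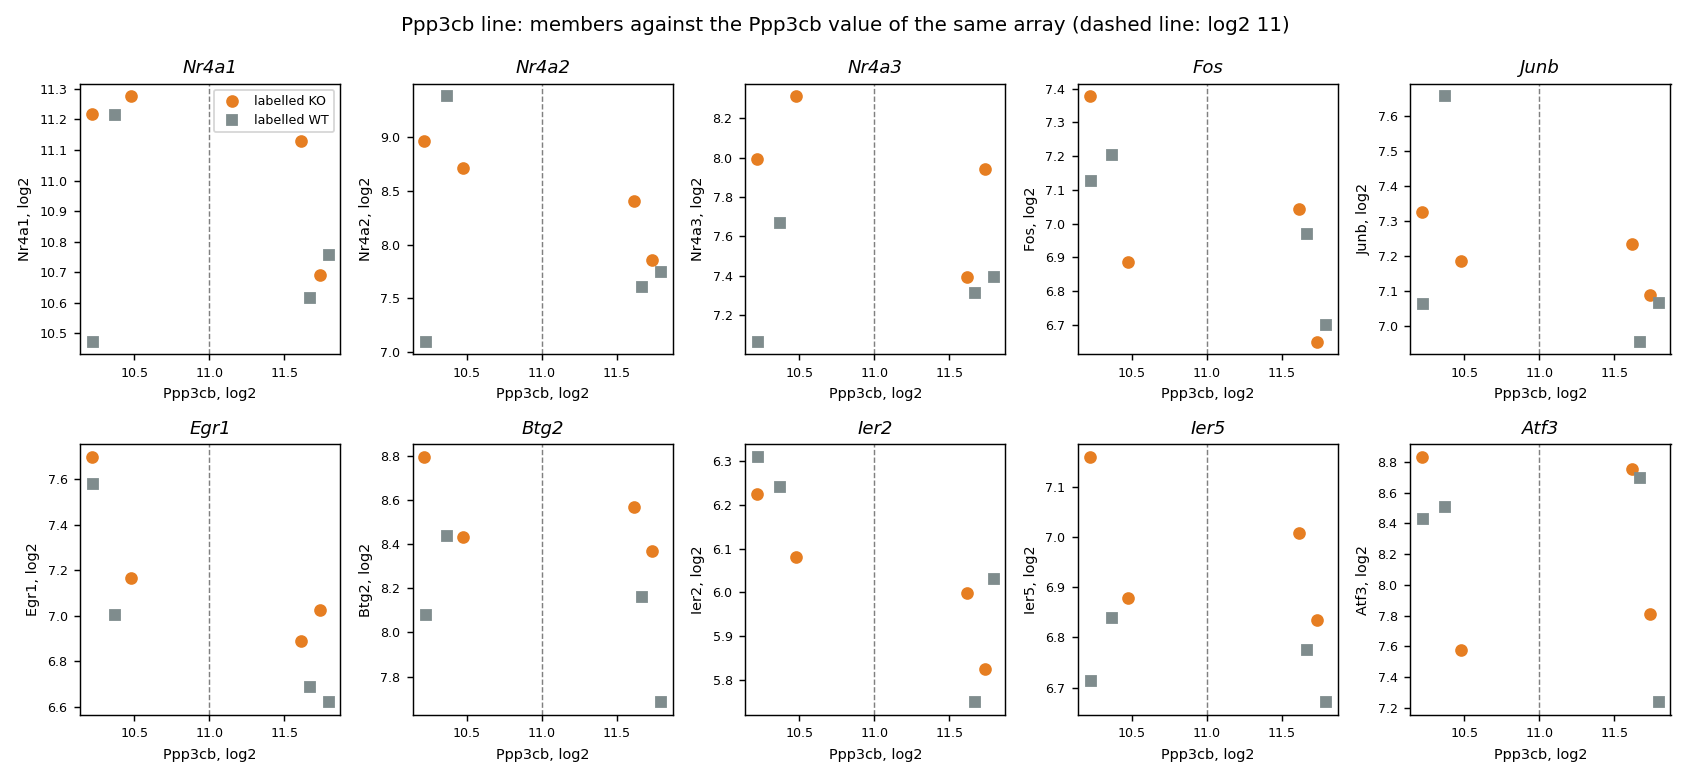
Log2 expression of each gene (vertical axes) against the log2 value of Ppp3cb in the same array (horizontal axes) for the 8 arrays of the Ppp3cb line. Orange circles are arrays labelled KO, grey squares arrays labelled WT, and the dashed line is a Ppp3cb value of 11. The Ier2 panel is the 1 panel in which the arrays left and right of the line do not overlap in height.

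The KO effects of the lines were compared by the difference of the Ppp3r1 and Ppp3cb effects, and 0 of the 9 genes was called, as was 0% of all clusters by limma. The difference was 0.52 for Nr4a3 (SE 0.38, 95% interval -0.29 to 1.32), -0.49 for Nr4a2 (SE 0.47, 95% interval -1.47 to 0.49) and 0.37 for Atf3 (SE 0.47). Without Ppp3r1 KO animal 416 it was 0.18 for Nr4a3 and 0.098 for Atf3. With the 4 contradictory arrays left out, that of Nr4a2 was -1.13 (SE 0.18, limma adjusted p = 0.0354), among 0.0459% of clusters called (7 of 15252). That of Nr4a3 was 0.27 (SE 0.46) in the same fit. The SE and limma p of Nr4a2 again mainly reflect its small spread within the Ppp3r1 line.

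The WT groups of the lines were set against each other as the background that each KO group is read on. Of the 9 genes 3 were called, all lower in Ppp3r1 WT muscle, where 35% of all clusters were called in either direction, so the count is near the background. Nr4a3 differed by -0.86 (SE 0.27, limma adjusted p = 0.0225), with 6.44 to 6.57 in Ppp3r1 WT muscle and 7.07 to 7.67 in Ppp3cb WT muscle. Ier5 differed by -0.27 (SE 0.09, limma adjusted p = 0.0305), at 6.43 to 6.60 in Ppp3r1 WT muscle and 6.67 to 6.84 in Ppp3cb WT muscle. Atf3 differed by -0.93 (SE 0.33, limma adjusted p = 0.0386), and its groups overlapped through Ppp3cb WT animal 12. Junb differed by -0.30 (SE 0.12, limma adjusted p = 0.0563) and was not called here, but it was under some alternative settings. Nr4a3 and Ier5 were the 2 genes without overlap, which 22.7% of clusters were as lower and 8.47% as higher in Ppp3r1 WT muscle. The Ppp3r1 WT values of both genes lay below the median of all probe sets on those arrays (6.81 to 6.91). With the 4 contradictory arrays left out 0 of the 9 was called. None was called without Ppp3cb WT animal 23 either, or without Ppp3r1 WT animal 413. The median log2 difference of all clusters in this comparison was -0.10, and it was -0.09 after a repeated quantile normalization and -0.21 with array medians removed. The lines cannot be told apart from how their arrays were handled.

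Across the 4 groups, 8 of the 10 genes had their highest mean in labelled Ppp3cb KO muscle, and Fos and Ier2 had theirs in Ppp3r1 KO muscle. Ppp3r1 WT muscle had the lowest mean for 9 of the 10, with Ier2 the exception. Of all tested clusters, 61.5% were lower in Ppp3r1 WT than in labelled Ppp3cb WT muscle. In the KO comparisons 54.2% were higher in Ppp3r1 KO muscle and 55.9% in labelled Ppp3cb KO muscle. The share of all clusters with the same highest or lowest group was not counted, so these counts of genes are a description only. Nr4a3 averaged 7.57 ± 0.78 in Ppp3r1 KO and 6.51 ± 0.06 in Ppp3r1 WT muscle, and 7.91 ± 0.38 in labelled Ppp3cb KO and 7.36 ± 0.25 in labelled Ppp3cb WT muscle (SD, n = 4 each). Its Ppp3r1 KO mean therefore lay between those of the other line, with gaps smaller than its own SD, and Ppp3r1 WT stood apart below. Btg2 averaged 8.18 ± 0.23 and 7.92 ± 0.12 in Ppp3r1 KO and WT muscle, and 8.54 ± 0.19 and 8.09 ± 0.31 in labelled Ppp3cb KO and WT muscle (SD, n = 4 each). Ier5 averaged 6.64 ± 0.16 and 6.48 ± 0.08 in Ppp3r1 KO and WT muscle, and 6.97 ± 0.15 and 6.75 ± 0.07 in labelled Ppp3cb KO and WT muscle (SD, n = 4 each). For both genes the Ppp3r1 KO and labelled Ppp3cb WT means were next to each other, with a gap smaller than the Ppp3r1 KO SD. Atf3 averaged 7.68 ± 0.62 and 7.28 ± 0.19 in Ppp3r1 KO and WT muscle, and 8.24 ± 0.64 and 8.22 ± 0.66 in labelled Ppp3cb KO and WT muscle (SD, n = 4 each), so the Ppp3cb groups were level.

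Nr4a1 averaged 10.81 ± 0.17 and 10.60 ± 0.29 in Ppp3r1 KO and WT muscle, and 11.08 ± 0.27 and 10.77 ± 0.32 in labelled Ppp3cb KO and WT muscle (SD, n = 4 each). Nr4a2 averaged 7.53 ± 0.14 and 7.50 ± 0.13 in Ppp3r1 KO and WT muscle, and 8.48 ± 0.48 and 7.96 ± 0.99 in labelled Ppp3cb KO and WT muscle (SD, n = 4 each). The SD of Nr4a2 was thus several times as large in the Ppp3cb line, while that of Nr4a1 was alike in both lines. Junb averaged 6.94 ± 0.12 and 6.88 ± 0.07 in Ppp3r1 KO and WT muscle, and 7.21 ± 0.10 and 7.18 ± 0.32 in labelled Ppp3cb KO and WT muscle (SD, n = 4 each). The means of Fos lay between 6.89 and 7.04 and those of Egr1 between 6.87 and 7.20, with neighbours in each order closer than their SDs. Ier2 averaged 6.33 ± 0.16 and 6.12 ± 0.26 in Ppp3r1 KO and WT muscle, and 6.03 ± 0.17 and 6.08 ± 0.25 in labelled Ppp3cb KO and WT muscle (SD, n = 4 each).

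Covariation was measured on deviations from the group means over 16 arrays, so that differences between groups do not enter. Of the 45 pairs 44 had a positive Pearson r, with a median of 0.45, and 40% had an r over 0.5. Over all pairs of tested clusters the median r was 0.04, with 53.92% positive and 11.65% over 0.5. After exact permutation of arrays within groups and Benjamini-Hochberg adjustment over the 45 pairs, 5 pairs passed 0.05 by Pearson r and 4 by Spearman rho, and 17 were under 0.05 before adjustment by Pearson r. Within the Ppp3r1 line 38 of 45 pairs were positive, and within the Ppp3cb line 41.

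Btg2 and Ier5 were the most firmly tied pair, with r = 0.80 and rho = 0.81 over 16 arrays (exact permutation p = 3.315e-05 and 8.138e-05, adjusted 0.00149 and 0.00366). Their r was 0.82 without the 2 arrays farthest from the median of Btg2, 0.80 in the Ppp3r1 line and 0.83 in the Ppp3cb line. Ier5 and Btg2 differ in the windows printed above, since that of Btg2 holds the full cyclic AMP response element and that of Ier5 no core. Fos was tied to Egr1 (r = 0.77, rho = 0.75, exact permutation adjusted p = 0.0365 and 0.0435), to Ier5 (r = 0.73, rho = 0.78, exact permutation adjusted p = 0.0365 and 0.0189) and to Junb (r = 0.57, rho = 0.67, exact permutation adjusted p = 0.0365 and 0.0455). Without the 2 arrays farthest from the median of Fos these r were 0.60, 0.64 and 0.49. Nr4a1 and Junb had r = 0.73 and rho = 0.72 (exact permutation adjusted p = 0.0459 and 0.0501). Their r was 0.75 without the 2 arrays farthest from the median of Nr4a1, labelled Ppp3cb KO animals 18 and 5. Labelled Ppp3cb WT animal 23 was kept, with deviations from its group mean of 0.45 for Nr4a1 and 0.47 for Junb. The 0.75 therefore does not show how far this r rests on animal 23.

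The 3 receptors moved less with the rest, and some of their ties differed by line. The median r with the other 9 genes was 0.21 for Nr4a1, 0.33 for Nr4a2 and 0.26 for Nr4a3. It was 0.36 for Atf3, close to that of Nr4a2, and 0.57 for both Fos and Btg2. Nr4a1 and Nr4a3 had r = 0.49 over 16 arrays, with 0.54 in the Ppp3r1 line and 0.50 in the Ppp3cb line (exact permutation adjusted p = 0.0744). Without the 4 contradictory arrays this r was 0.54. Nr4a1 and Nr4a2 had r = 0.68 over 16 arrays, made of -0.38 in the Ppp3r1 line and 0.94 in the Ppp3cb line, and the pair did not pass (exact permutation adjusted p = 0.0744). Nr4a2 and Junb had the highest r of all pairs, 0.85, made of 0.16 in the Ppp3r1 line and 0.92 in the Ppp3cb line (exact permutation adjusted p = 0.0796). Without the 2 arrays farthest from the median of Nr4a2 their r was 0.54. The difference between the lines was not tested, and the spread of Nr4a2 was small in the Ppp3r1 line. Nr4a3 and Btg2 were the 1 pair with a negative r, -0.01. Over the 12 arrays left without the 4 contradictory ones, 38 of 45 pairs were positive, with a median r of 0.41. Btg2 with Ier5 then had 0.81, Fos with Egr1, Junb and Ier5 had 0.87, 0.77 and 0.70, and Nr4a1 with Junb had 0.52. Nr4a2 with Junb had 0.37 and Nr4a1 with Nr4a2 had -0.31, so the positive r of this last pair rests on the arrays left out.

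**Figure D5:**
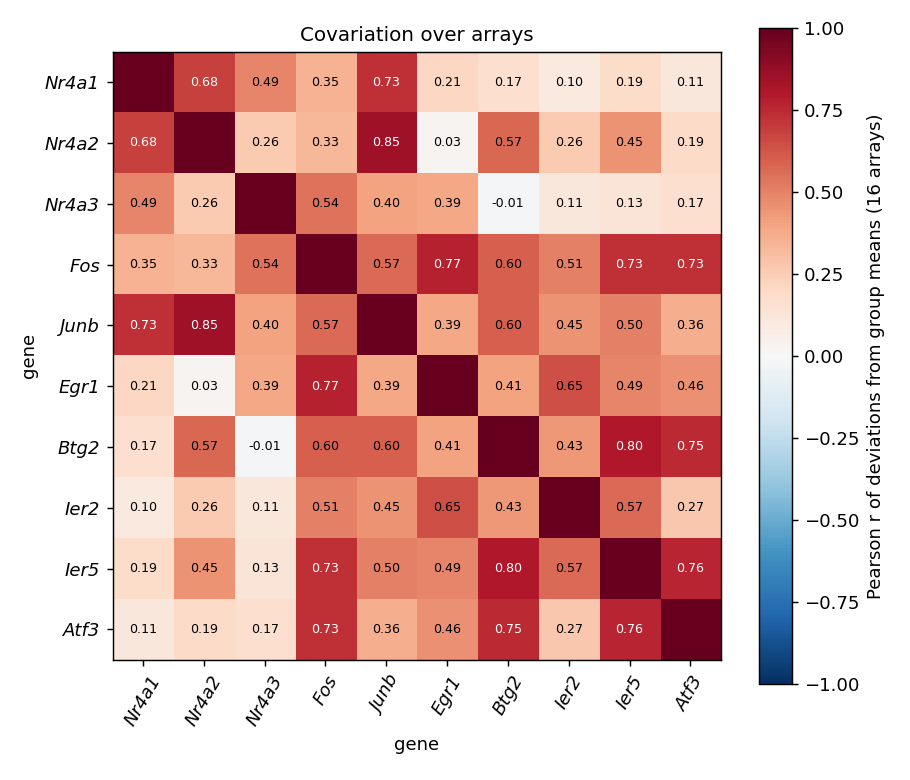
Pearson r of each pair of the 10 genes over 16 arrays after group means were removed, with genes on both axes and r as colour and number. Fos, Btg2, Ier5 and Atf3 form a block of r between 0.60 and 0.80, and the row of Nr4a1 is at most 0.35 outside its cells with Nr4a2, Nr4a3 and Junb.

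The wider network was read from lists of related genes, by counts only, and 0 members of any list was called in either line. In Ppp3r1 KO muscle 25 of 36 other immediate early genes were higher, with a median log2 difference of 0.11, and 8 were higher and 2 lower at an unadjusted p under 0.05. Over all clusters 54.2% were higher, and 6.37% were higher and 5.35% lower at that p, which is also the background of the next lists. Sik1, a kinase that restrains CRTC and is itself a CREB target, had 0.62 (SE 0.21), and Myc had 0.51 (SE 0.18). Ptgs2, the inducible cyclooxygenase, had -0.38 (SE 0.12). Of the AP-1 and ATF/CREB-family factors 8 of 11 were higher, with Jun at 0.34 (SE 0.17), Jdp2, a repressor of AP-1, at 0.22 (SE 0.10) and Maff at 0.22 (SE 0.11). All 4 tested genes of the EGR family and its NAB co-repressors were higher, with Egr4 at 0.27 (SE 0.12), Egr3 at 0.09 (SE 0.10) and Nab1 at 0.09 (SE 0.13). Of the BTG/TOB and IER relatives 4 of 5 were higher, with Btg1 at 0.38 (SE 0.12), Tob2 at 0.24 (SE 0.17) and Ier5l at 0.16 (SE 0.11).

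Of the NR4A partners and muscle NR4A targets 13 of 18 had a lower mean in Ppp3r1 KO muscle (median -0.14), against 45.8% of all clusters. At an unadjusted p under 0.05, 5 were lower and 1 higher, against 5.35% and 6.37% of all clusters. Bpgm, which makes 2,3-bisphosphoglycerate, had -0.66 (SE 0.19), and Pdp1, the phosphatase that activates pyruvate dehydrogenase, had -0.59 (SE 0.19). Lpin1, a phosphatidate phosphatase, had 0.51 (SE 0.15). The upstream kinases and activators of these genes were split, 10 higher and 11 lower of 21, with Elk1 at 0.25 (SE 0.13), Mrtfa at -0.37 (SE 0.19) and Camk2d at -0.25 (SE 0.13).

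In labelled Ppp3cb KO muscle 22 of 36 other immediate early genes were higher, with a median of 0.02, near the 55.9% of all clusters that were higher. At an unadjusted p under 0.05, 1 was higher and 1 lower, against 0.872% and 0.859% of all clusters. These were Rgs2, a regulator of G protein signalling, at 0.29 (SE 0.13), and Ptgs2 at -0.30 (SE 0.12), while Myc had -0.33 (SE 0.18). Of the AP-1 and ATF/CREB-family factors 8 of 11 were higher, with Fosl2 at 0.17 (SE 0.12), Batf at 0.10 (SE 0.10) and Jund at 0.16 (SE 0.17). Of the EGR list 3 of 4 were higher, with Egr4, Nab2 and Egr3 between 0.02 and 0.09. Of the NR4A partners and targets 13 of 18 were higher, and Pdk4, the kinase that inhibits pyruvate dehydrogenase, had -0.21 (SE 0.21). Pygm and Pgam2 had 0.04 (SE 0.04) and 0.08 (SE 0.13). Of the upstream list 17 of 21 were higher, with Camk2b at 0.20 (SE 0.14), Crebbp at 0.10 (SE 0.09) and Crtc3 at 0.16 (SE 0.14). Of the BTG/TOB and IER relatives 4 of 5 were higher. Tob2 had 0.13 (SE 0.17), Ier5l -0.08 (SE 0.11) and Ier3 0.12 (SE 0.20).

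Without the 4 contradictory arrays 0 members of these lists was called in the Ppp3cb comparison, and 55.63% of all clusters were higher. Higher means were found for 26 of 36 other immediate early genes, 8 of 11 AP-1 and ATF/CREB-family factors, 4 of 4 of the EGR list, 5 of 5 BTG/TOB and IER relatives and 12 of 18 NR4A partners and targets. Of the upstream list 9 of 21 were higher, against 17 with all arrays. Ier3 had 0.73 (SE 0.20), Nab2 0.55 (SE 0.18), Jund 0.41 (SE 0.23), Fosl2 0.32 (SE 0.13), Tob2 0.33 (SE 0.18) and Rgs2 0.30 (SE 0.19). Egr4 and Egr3 had 0.25 (SE 0.16) and 0.20 (SE 0.12), Batf and Pgam2 each 0.24 (SE 0.15 and 0.19), and Pygm 0.03 (SE 0.06). Ptgs2 had -0.36 (SE 0.19) and Myc -0.30 (SE 0.26). The sign turned for Pdk4, Ier5l, Camk2b and Crebbp, which had 0.16 (SE 0.25), 0.15 (SE 0.15), -0.16 (SE 0.16) and -0.04 (SE 0.12), and Crtc3 had 0.01 (SE 0.21).

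Rcan1, an NFAT-induced inhibitor of calcineurin, had log2 differences of -0.12 (SE 0.30) in the Ppp3r1 line and 0.34 (SE 0.30) in the Ppp3cb line, which turned to -0.27 (SE 0.25) without the 4 contradictory arrays. Of the markers of other cell types 0 was called in either line, and the ranges given here with all arrays overlap between the groups. Each range is the log2 of the summed level of all markers of the list found on the arrays. Markers below the filter are included, such as 3 of the 7 lymphocyte markers found, so a range can cover more markers than were tested. In the Ppp3r1 line all 8 fibroblast markers were lower in KO muscle (median -0.24, summed level 13.06 to 13.28 in KO and 13.06 to 13.50 in WT), and 4 of 6 tendon markers were lower (9.92 to 10.85 in KO and 10.64 to 11.39 in WT). All 4 tested lymphocyte markers were higher in KO muscle (9.14 to 9.94 in KO and 9.03 to 9.40 in WT), as were all 4 tested Schwann cell markers (median 0.12, 10.97 to 11.41 in KO and 10.99 to 11.21 in WT). Of 10 endothelial markers 8 were lower (median -0.10, 11.71 to 12.53 in KO and 12.13 to 12.38 in WT). In the Ppp3cb line all 9 tested macrophage markers were lower in labelled KO muscle (10.47 to 11.49 in KO and 10.88 to 11.62 in WT), and all 6 tendon markers were higher (11.30 to 11.70 in KO and 10.90 to 11.63 in WT). All 4 tested Schwann cell markers were higher there too (median 0.16, 11.42 to 12.03 in KO and 11.37 to 11.75 in WT). Without the 4 contradictory arrays the macrophage markers were again lower in 9 of 9, tendon markers were higher in 5 of 6 and Schwann cell markers in 3 of 4, while all 8 fibroblast markers were lower, against 4 of 8 with all arrays. Of 8 fibre markers 2 were higher, against 8 with all arrays. The summed tendon markers then did not overlap, at 11.30 to 11.45 in KO and 11.17 to 11.19 in WT. Those of adipocytes, red blood cells, and smooth muscle and pericytes did not overlap either and were higher in KO. The summed satellite cell markers were lower without overlap, at 9.87 to 9.96 in KO and 10.08 to 10.11 in WT. With 2 arrays against 2, a separation in either direction has a two-sided exact permutation p of 0.333. Of 8 neutrophil markers 7 were below the filter. The part of these cells in the results was not tested, and in whole muscle fewer cells of a type and less RNA per cell cannot be told apart.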

How the data were processed

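The labels place 4 arrays in each of 4 groups of line and genotype. The authors deposited log2 expression values from GCOS 1.0 and RMA (robust multi-array average), per the submitters' processing notes. No joint or separate normalization of the lines is given in the sources used here. The deposited ratio columns hold each linear value over the median within its line, as was checked, and were not used further. A second deposited log2 table differed from the first in 0 values. Each replicate is a mouse, and precision is limited by having 4 arrays a group.

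The tested set held 15252 single-symbol probe sets whose mean reached the 30th percentile (6.18 on the log2 scale), and 6537 did not. Group means of all 16 arrays were fitted with limma 3.58.1 in R 4.3.3 (eBayes with an intensity trend, 12 residual degrees of freedom). The Benjamini-Hochberg adjustment ran over all tested clusters. Single values were compared by two-sided exact permutation of 4 against 4 arrays. The functions were tested on simulated data.

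Named genes are the 10 members, the targeted genes, Rcan1, the 3 members with the smallest p per related list and line, and the clusters most like the members. The members, the lists and the tests were chosen with earlier results of these data known. Lists are described by counts, with no test. Alternatives covered the filter, the normalization, array weights, each line on its own, the prior of the variance, the animal number series as a block, leaving out the 4 arrays that contradict their labels, and leaving out single arrays. Related lists, the markers, Rcan1 and the covariation without those 4 arrays were added after the data were seen.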

Additional observations from a re-analysis of the deposited data

Results flagged for a closer look

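Among the 40 combinations of a gene and a group, 4 held an array far from the other 3 by the gap to its nearest neighbour, and chance gives about 1 in 20. Fos was 7.75 in Ppp3r1 KO animal 416, against 6.72 to 6.85 in the other KO arrays. Junb was 7.66 in Ppp3cb WT animal 23, against 6.95 to 7.07 in the other arrays labelled WT. Btg2 was 7.84 in Ppp3r1 KO animal 335, against 8.25 to 8.32 in the other KO arrays. Ier5 was 6.60 in Ppp3r1 WT animal 336, against 6.43 to 6.45 in the other WT arrays.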

How the results depend on the processing

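No paired analysis was possible because no animal number is shared between groups. Over 26 alternative settings, 859 of 897 log2 differences of the 10 genes kept their sign and 38 turned, and within the series of animal numbers 6 more turned. In the Ppp3r1 comparison 0 of the 9 genes was called under any of the settings run for it. There 0 clusters were called with each line fitted alone and 2 with array weights, and leaving out single arrays gave 1 to 12 (12 without KO animal 416, 3 without Ppp3cb WT animal 12, 2 without KO animal 331). With the 4 contradictory arrays left out, 14 clusters and 1 of the 9 genes were called in the Ppp3cb comparison, 7 clusters and 1 gene for the difference of the effects, and 3324 clusters and 0 genes between the WT groups. The difference of the effects also called 1 cluster with array medians removed and 1 with the number series as a block. Leaving out single arrays gave 0 to 2 clusters in the Ppp3cb comparison, 0 to 1 for the difference, and 3099 to 5784 clusters with 0 to 3 genes between the WT groups, with 1 gene without Ppp3r1 WT animal 334, 336 or 415. Signs turned for values near 0. Nr4a2 in the Ppp3r1 line was -0.019 with array weights. Fos in the Ppp3cb line was 0.020 with quantile normalization, 0.025 with array medians removed, 0.036 with array weights and 0.30 without the 4 arrays. For the difference of the effects Junb was -0.015, -0.024 and -0.18 with quantile normalization, array medians removed and without the 4 arrays, Atf3 was -0.078 with array weights, and Fos was -0.15 without the 4 arrays. Between the WT groups Fos was 0.058 and Egr1 0.21 without the 4 arrays. Atf3 lost its call there with quantile normalization (limma adjusted p = 0.0527), array weights (0.0844) and a robust prior (0.0736). Junb gained a call there with quantile normalization (limma adjusted p = 0.0319), array medians removed (0.0166) and array weights (0.0280). Without Ppp3cb WT animal 2 it was called too (limma adjusted p = 0.0308). Over the settings other than leaving out single arrays, 0 to 4 genes were called between the WT groups. With single arrays left out the Ppp3r1 differences ranged from -0.013 to 0.10 for Nr4a2, -0.090 to 0.25 for Fos and -0.11 to 0.20 for Egr1. The Ppp3cb differences ranged from -0.14 to 0.10 for Fos, -0.054 to 0.18 for Junb and -0.30 to 0.25 for Atf3. The differences of the effects ranged from -0.26 to 0.0095 for Nr4a1, -0.081 to 0.28 for Fos, -0.12 to 0.11 for Junb, -0.34 to 0.026 for Egr1 and -0.10 to 0.0069 for Ier5. Between the WT groups Nr4a2 ranged from -0.75 to 0.012 and Egr1 from -0.22 to 0.10. The lists and the covariation without the 4 arrays were added after the data were seen. Positive pairs numbered 38 to 44 over the settings of the covariation. The causes of these changes were not tested.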

Other observations

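Further lists hold genes that also respond quickly in muscle, and 0 of their members was called in either line. Of 8 hypoxia-induced genes 6 were higher in Ppp3r1 KO muscle (median log2 difference 0.24), with Egln3, an oxygen-sensing prolyl hydroxylase, at 0.77 (SE 0.30), Ddit4, an inhibitor of mTOR signalling, at 0.72 (SE 0.35) and Bnip3, a mitophagy receptor, at 0.47 (SE 0.17). In labelled Ppp3cb KO muscle 3 of 8 were higher. Pfkfb3, a regulator of glycolysis, had 0.75 (SE 0.27), Ddit4 0.31 (SE 0.35) and Slc2a1 0.17 (SE 0.14). Without the 4 arrays that contradict their labels 7 of 8 were higher there, and Pfkfb3 had -0.08 (SE 0.23), Ddit4 1.11 (SE 0.42) and Slc2a1 0.06 (SE 0.21). Of 6 glucocorticoid-induced genes 5 were higher in Ppp3r1 KO muscle, with Pik3r1 at 0.75 (SE 0.25), Fkbp5 at 0.73 (SE 0.32) and Zbtb16 at 0.17 (SE 0.12). In labelled Ppp3cb KO muscle 4 of 6 were higher, with Tsc22d3 at 0.14 (SE 0.12), Zbtb16 at -0.13 (SE 0.12) and Sgk1 at 0.13 (SE 0.15), and without the 4 arrays 5 of 6 were, with 0.15 (SE 0.15), -0.19 (SE 0.19) and 0.24 (SE 0.19). Of 8 heat shock genes 5 were higher in Ppp3r1 KO muscle and 2 in labelled Ppp3cb KO muscle. Hspa1a, an inducible heat shock protein, had 0.34 (SE 0.22) in the Ppp3r1 line and 0.35 (SE 0.22) in the Ppp3cb line, and Hsp90aa1 had -0.21 (SE 0.17) and -0.25 (SE 0.17). Hspa5 had 0.18 (SE 0.10) in the Ppp3r1 line and Hsph1 -0.46 (SE 0.23) in the Ppp3cb line. Without the 4 arrays 6 of 8 heat shock genes were higher in labelled Ppp3cb KO muscle, with Hspa1a at 0.76 (SE 0.30), Hsp90aa1 at 0.08 (SE 0.17) and Hsph1 at 0.07 (SE 0.26). Over all clusters 54.2% were higher in the Ppp3r1 comparison, 55.9% in the Ppp3cb comparison and 55.63% without the 4 arrays.

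Clusters whose deviations from the group means were most like the mean of the 10 genes over 16 arrays were Trim47 (Pearson r = 0.90), Adcy4 (0.89), Jmjd4 (0.89), S100g (0.88) and Lrrc8a (0.88). Most like Nr4a2 were Fosl2 (0.90), Klf4 (0.89) and Gnb1l (0.86), of which Fosl2, an AP-1 subunit, and Klf4 are early response genes themselves. The largest Nr4a2 deviations were those of labelled Ppp3cb WT animals 23 and 24, at 1.42 and -0.86. Both arrays contradict their label, and how far this likeness rests on them was not tested. Most like Nr4a3 were Atg10 (0.92), Taco1 (0.92) and Gpr157 (0.90), and most like Nr4a1 were Tmem117 (0.89), Pex10 (0.89) and Lman1 (0.88). These are the highest r among the tested clusters and are given as a description.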
